A study of Mus musculus with 2 samples.

Results

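Wing cells form the middle layers of the corneal epithelium, between the basal cells that rest on the basement membrane and the flat superficial cells that face the tear film. In droplet single-cell RNA sequencing of the mouse cornea and limbal rim, 920 of the 7668 deposited cells were taken as wing cells, 253 of 2513 in a wild-type library and 667 of 5155 in a library from a Beclin1 +/- mouse. They made up 10.1% (exact binomial 95% interval 8.92 to 11.3) and 12.9% (12 to 13.9) of the cells. The cells were chosen by their own transcript levels, so that every level of a gene used in the choice is a description and not a finding. Levels are in CPM, the unique molecular identifiers (UMIs) of a gene per 1000000 UMIs of the cell or of the summed cells. A wing cell had at least 20000 CPM of Krt12, the keratin specific to the corneal epithelium, and less than 2000 CPM of Krt14, the keratin of basal cells. It also had less than 1000 CPM of the superficial-cell gene Lce3a, 250 CPM of the eye transcription factor Pax6, 500 CPM of the limbal gene Gpha2 and 2000 CPM of the stromal proteoglycan Dcn. Fewer than 3 UMIs of Krt78, a keratin of the uppermost layers, and fewer than 3 UMIs in all of the mast cell proteases Mcpt4, Tpsb2 and Cma1 were allowed.

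The libraries came from 2 female littermates of 28 days on the C57BL/6 background, a wild-type mouse and a mouse heterozygous for Beclin1 (gene symbol Becn1), with no other allele or agent named. What the targeted allele lacks is not described in the labels. The lens, retina, iris and trabecular meshwork had been taken out and most of the conjunctiva cut away before collagenase and trypsin digestion, so other tissues of the limbal rim were still present. Each genotype was 1 animal and 1 library, so genotype, animal and preparation cannot be told apart, no difference could be set against the spread between animals, and the intervals below are for counting error alone.

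Corneal epithelium renews itself without a dead horny layer. Basal cells divide, detach from the basement membrane and move up as wing cells, which hold together through desmosomes and fill with Krt12 and its partner keratins, and then flatten into superficial cells that seal the surface with tight junctions and carry membrane mucins. The wing layer is therefore a stage of a continuous path, and its neighbours on that path were used here for comparison. The basal set met the same conditions but with at least 2000 CPM of Krt14 (315 and 489 cells), and the Krt78-positive set met them but with at least 3 UMIs of Krt78 (81 and 105 cells). Superficial cells had at least 1000 CPM of Lce3a (56 and 126 cells). Stromal cells had at least 2000 CPM of Dcn and less than 20000 CPM of Krt12 (598 and 1475 cells). Their levels served as a rough guide to RNA that floats free between droplets, which was not told apart from their own transcripts. Pairs of values below give the wild-type library first and the Beclin1 +/- library second.

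Wing cells had a median of 20449 and 14729 UMIs, against 16967 and 11571 over all cells, with ranges of 8106 to 91733 and 5535 to 67539, and 6104748 and 11502571 UMIs in all. The libraries shared 15 barcode sequences, 1 of them among the wing cells, and Scrublet marked 2 and 12 wing cells as doublets, which were kept. Mitochondrial transcripts took 1.73% and 1.61% of wing cell UMIs. Transcripts of ribosomal proteins took 20.2% and 18.6%, between the 24.4% and 24% of basal cells and the 12.7% and 10.8% of Krt78-positive cells, and reached 4.89% and 5.45% in superficial cells.

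**Figure D1:**
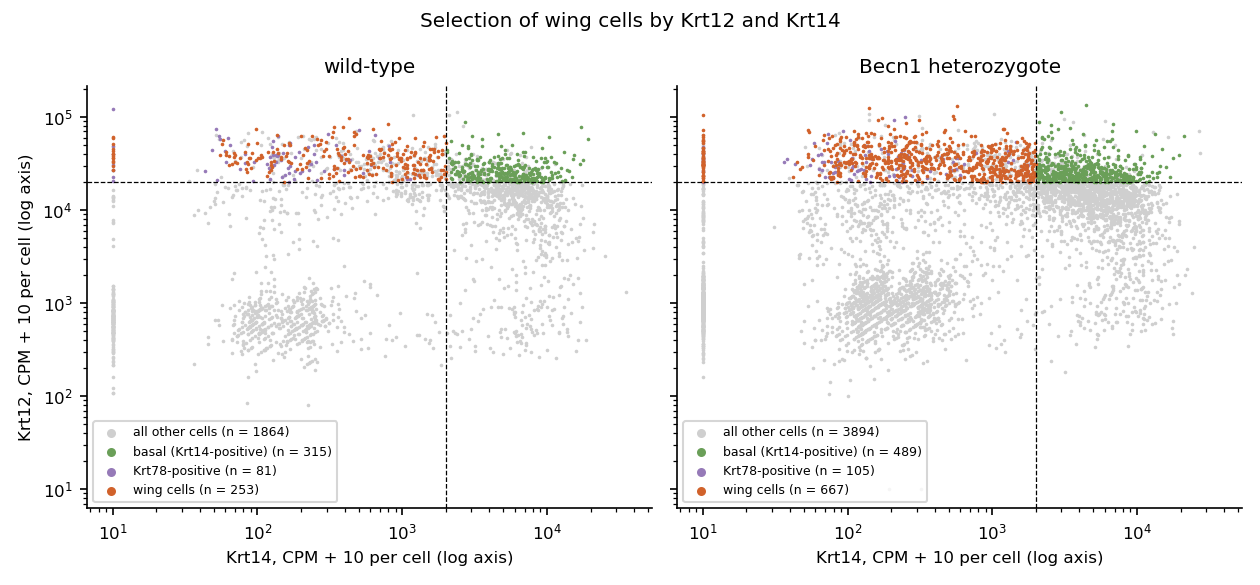
Each point is 1 cell, with the level of Krt14 (x axis, CPM + 10, log axis) and of Krt12 (y axis, CPM + 10, log axis), for the wild-type library on the left and the Becn1 heterozygote library on the right. Dashed lines mark 2000 CPM of Krt14 and 20000 CPM of Krt12, and the 253 and 667 wing cells lie in the upper left field without a gap to the basal cells on the right.

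The limits cut through a continuum. Krt14 alone separated 315 and 489 cells from the wing cells, Krt12 alone 141 and 430, Pax6 alone 160 and 192, and Krt78 alone 81 and 105, while each other condition kept out at most 12 cells by itself. Cells just inside the Krt14 limit (1600 to 2000 CPM, 22 and 64 cells) had 1354 and 1943 CPM of Sprr1a and 547 and 357 CPM of Col17a1. Just outside it (2000 to 2400 CPM, 18 and 61 cells) the levels were 1104 and 811 CPM of Sprr1a and 592 and 497 CPM of Col17a1. Psca, a small surface protein of upper epithelial cells, stood at 1599 and 3742 CPM in the 51 and 143 wing cells with 1 or 2 Krt78 UMIs and at 2648 and 4429 CPM in the 13 and 33 cells with 3, so the step at that limit was a gradual one too.

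The label was checked against 4 markers. Krt12 chose the cells and reached 35529.7 and 34873 CPM. Sprr1a, a small proline-rich protein that is cross-linked under the membrane of stratifying cells, was counted at 2335 CPM (Poisson 95% interval 2297 to 2374) and 1895 CPM (1869.8 to 1920.2) in wing cells. It had 521 and 707 CPM in basal, 1468 and 896 CPM in Krt78-positive, 110.3 and 577 CPM in superficial and 107 and 137 CPM in stromal cells. The wing set was thus the highest of these sets in both libraries. Cells just outside the Krt12 limit (16000 to 20000 CPM) had 2562 and 1493 CPM of Sprr1a, against 2271 and 1513 CPM just inside (20000 to 24000 CPM). The 13 and 33 cells with 3 Krt78 UMIs had 3307 and 1284 CPM. Dsg1a, a desmosomal cadherin of the upper layers, had 243 and 234 CPM in wing cells, 77.1 and 85.3 CPM in basal cells and 259 and 197 CPM in Krt78-positive cells. After thinning each cell to 5000 UMIs, 76.7% and 72.0% of wing cells held a UMI of Sprr1a and 62.1% and 63.0% one of Dsg1a, against 10.4% and 11.7% and 2.84% and 4.07% of stromal cells, and without thinning the wing shares were 84.6% and 83.2% and 92.5% and 88.8%. The fourth marker did not follow the label. Aldh3a1, the aldehyde dehydrogenase that is the main crystallin of the mouse cornea, had 9431 and 8631 CPM in wing cells but 16336 and 14212 CPM in basal cells, a log2 ratio of wing over basal of -0.79 and -0.72. It stood at 2915 and 2317 CPM in superficial and 2763 and 3249 CPM in stromal cells, so it does not set the wing layer apart.

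Markers of other cell types were low in the summed wing cells, with a few single cells as exceptions. The 8 stromal markers other than Dcn summed to 339 and 157 CPM, against 50870.4 and 43546.9 CPM in stromal cells, and none was at 0. In 2 wing cells of each library these markers reached 1000 CPM or more, with a highest cell of 11337 and 8585 CPM, and in the wild-type library they summed to 106 CPM in basal and 1062 CPM in Krt78-positive cells. The 10 leukocyte markers summed to 1.47 and 26.1 CPM, with Ptprc, Lyz2, Fcer1g, Cd3e and Cd3g at 0 UMIs in the wild-type wing cells, a count that allows up to 0.491 CPM each, and 1 heterozygote cell carried 12906 CPM of them. The 5 mast cell markers outside the rule summed to 19.2 and 22 CPM, nearly all of it Kit, and Cpa3, Ms4a2, Fcer1a and Hdc were at 0. Goblet cell genes summed to 2.78 and 2.87 CPM, with Muc5b, Tff1 and Tff2 at 0 in both libraries. The melanocyte and Schwann cell list summed to 5.41 and 3.65 CPM, with Sox10 and S100b at 0 in both libraries. The vessel and corneal endothelium list summed to 149.7 and 140.0 CPM, close to the 144.6 and 160.5 CPM of basal cells. Red cell and lens genes summed to 125 and 147 CPM, and Cryab, a small heat shock protein that many tissues make, was their 1 member of at least 20 CPM on average. Markers of limbal basal cells outside the rule summed to 1641 and 2681 CPM, which was nearly all Krt15 and is described with the spread among wing cells.

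Few genes peaked in wing cells. Of 1916 genes with at least 50 CPM in wing cells of both libraries, 230 were higher there than in basal, Krt78-positive and superficial cells of the same library, and 4 were at least 1.5-fold higher than in each of these. They were Ptgr1, a reductase that inactivates prostaglandins, leukotrienes and reactive aldehydes, Sprr1a, the glutathione transferase Gsta2 and Ankrd22, a protein of ankyrin repeats. Ptgr1 (chromosome 4, 58965439 to 58987119, GRCm38) had 819 and 727 CPM in wing cells, 426 and 452 CPM in basal and 466 and 435 CPM in Krt78-positive cells, and Gsta2 had 273 and 190.5 CPM in wing, 145 and 122 CPM in basal and 116 and 81.6 CPM in Krt78-positive cells. Ankrd22 was lower throughout, with 73.7 and 62.9 CPM in wing cells. The next 6 in order were the acyltransferase Agpat3, Dnajc24, the tubulin cofactor Tbcd, the peptide hormone adrenomedullin (Adm), the thiolase Acaa2 and the small GTPase Rhov. Of these Adm was the most abundant, with 1164 and 924 CPM in wing, 755 and 705 CPM in basal and 715 and 481 CPM in Krt78-positive cells. These genes were picked for this pattern, so the values describe them and test nothing.

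Upstream sequences of the 4 genes, 250 to 51 bases before the RefSeq start site, were read from RefSeq promoters on GRCm38.p6 and searched on both strands for the AP-1 site TGANTCA, the core of the antioxidant response element TGACNNNGC and the grainyhead site AACCNGTT, chosen because these factors act on stratifying or stressed epithelium. Of 32851 mouse promoters of the same length, 5.57% held the AP-1 letters, 7.66% the antioxidant core and 1.42% the grainyhead letters. Sprr1a (chr3:92485932-92486131, minus strand) held 2 AP-1 matches and 1 antioxidant core, which overlaps the first of them, and Ptgr1 (chr4:58987129-58987328, minus strand), Gsta2 and Ankrd22 held none of the 3 in this window. The stretches of Sprr1a and Ptgr1 are shown, 5′ to 3′ on the gene's strand, because these are the most abundant of the 4 and differ in what the search found, with matches in capitals. A match is a run of letters and was not tested as a binding site.
Sprr1a: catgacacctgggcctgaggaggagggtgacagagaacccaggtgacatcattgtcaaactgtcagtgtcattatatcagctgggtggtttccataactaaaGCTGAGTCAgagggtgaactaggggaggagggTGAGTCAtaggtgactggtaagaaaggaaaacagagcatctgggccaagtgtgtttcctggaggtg
Ptgr1: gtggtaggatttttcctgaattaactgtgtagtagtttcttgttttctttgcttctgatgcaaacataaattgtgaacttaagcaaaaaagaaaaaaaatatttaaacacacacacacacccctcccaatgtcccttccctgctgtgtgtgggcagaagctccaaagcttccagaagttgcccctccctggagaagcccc

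**Figure D2:**
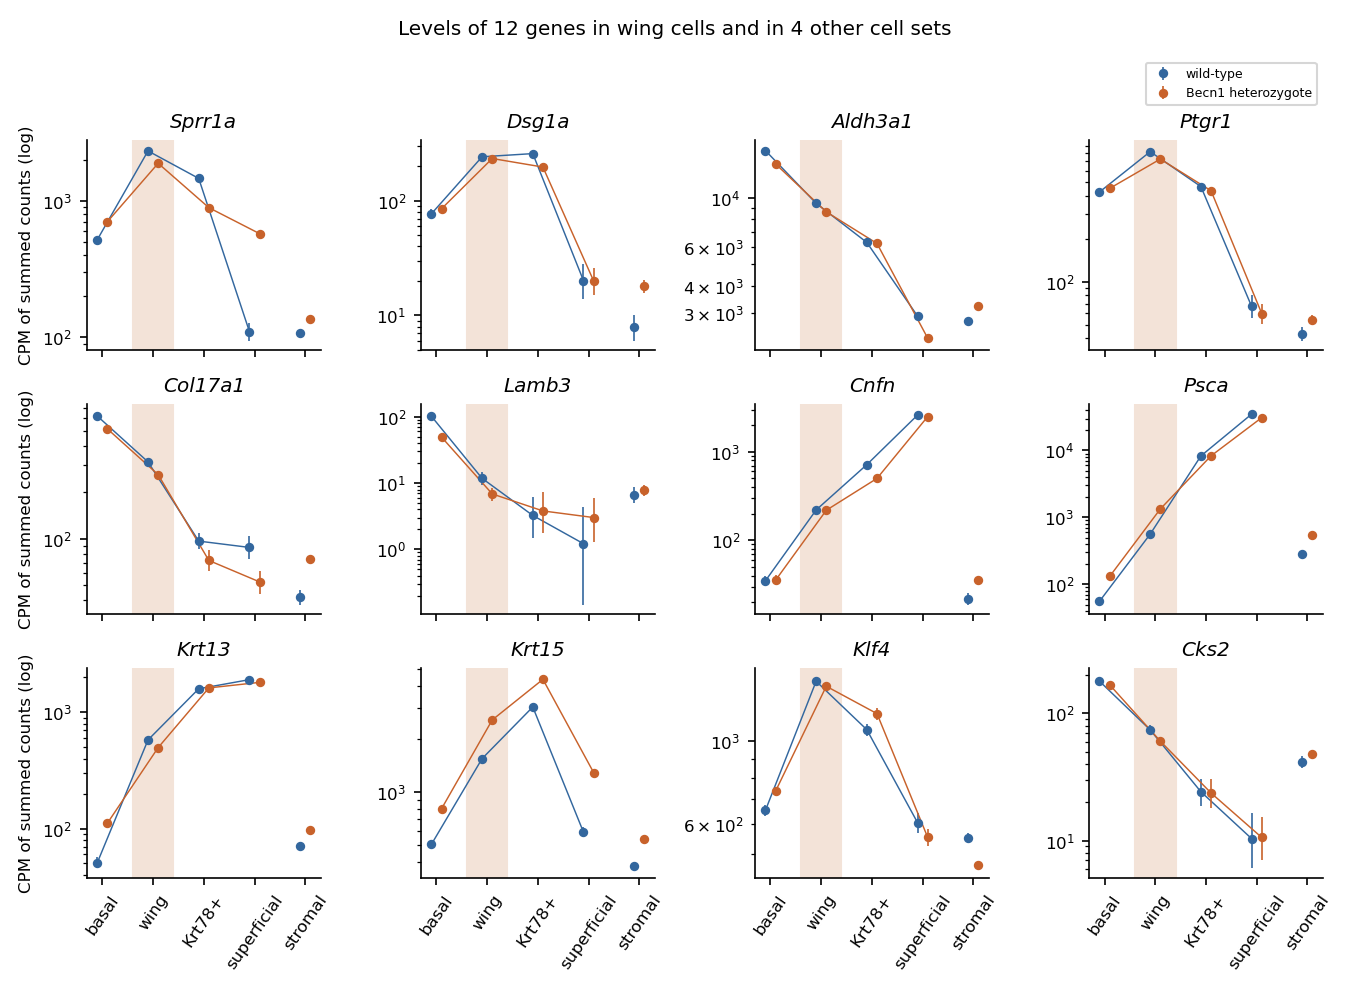
Levels of 12 genes (y axis, CPM of summed counts, log axis) in basal, wing (shaded), Krt78-positive, superficial and stromal cells (x axis), with points for the wild-type (blue) and Becn1 heterozygote library (orange) and bars for Poisson 95% intervals. Sprr1a, Ptgr1 and Klf4 are highest in the wing column in both libraries, Aldh3a1, Col17a1, Lamb3 and Cks2 are highest in basal cells, and Psca and Cnfn are highest in superficial cells.

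The step from the basal to the wing layer was described as log2 ratios of summed counts within each library. The sets are cut on Krt14, so the contrast is the rule's own. A gene was measured if it had a mean of at least 20 CPM over the compared sets of both libraries, and genes of the rule were left out. A gene that is low in either set can thus be measured through the other, which fixes its direction. Of 4038 genes measured, 428 (10.6%) were at least 1.5-fold higher in wing cells in both libraries and 362 (8.96%) at least 1.5-fold lower. With TMM scaling, which centres the bulk of the genes and shifts the ratios by 0.04 and 0.10, the counts were 504 and 289. With no Krt78 UMI allowed in wing cells they were 337 and 282. Without wing cells of at least 2000 CPM of Krt15 they were 371 and 300. Both of these choices were made after the data had been seen. The median over all measured genes was -0.02 and -0.05.

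Genes that hold the cell to the basement membrane stood lower in wing cells. Of 16 hemidesmosome and basement membrane genes, 11 were measured, all 11 were lower in both libraries and 9 were at least 1.5-fold lower in each, with medians of -1.56 and -1.36. In wing cells alone, 9 of the 16 reached a mean of 20 CPM. The others, Lamb3 among them, were measured through their basal level, so the filter set their direction and the counts and medians lean that way. Lamb3, the beta chain of the anchoring laminin, had 102 and 49.4 CPM in basal and 11.8 and 6.87 CPM in wing cells, log2 ratios of -3.10 (-3.48 to -2.76) and -2.84 (-3.22 to -2.49). The beta integrins Itgb1 and Itgb4 had ratios of -2.41 and -2.18 and of -2.22 and -1.95, and their partner Itga3 -1.86 and -1.67. Col17a1, the transmembrane collagen of the hemidesmosome, differed less, with 622 and 514 CPM in basal and 314 and 259.9 CPM in wing cells. Fermt1, which activates integrins, and Bcam, a laminin receptor, were among the 10 lowest genes of at least 100 CPM, with ratios of -2.09 and -1.70 and -1.99 and -2.01.

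The lowest of these 10 was Phgdh, the first enzyme of serine synthesis from glucose, at 170.2 and 118 CPM in basal and 30.8 and 23.6 CPM in wing cells (log2 ratios -2.46 (-2.70 to -2.24) and -2.32 (-2.53 to -2.12)). The others were the protein C receptor Procr (-2.25 and -2.07), carboxypeptidase E (Cpe, -2.22 and -2.06), the taurine transporter Slc6a6 (-2.21 and -1.94), Wfdc2 (-1.85 and -1.76), Plek2 (-1.72 and -1.75) and the tubulin Tubb6 (-1.71 and -1.79). Among the 6 of 24 G2 and M phase genes that could be measured, 5 were lower in each library, with medians of -1.01 and -1.43. Cks2, a subunit of the mitotic kinase, had 179 and 168 CPM in basal and 74.2 and 60.5 CPM in wing cells, and Ube2c, which drives the exit from mitosis, 54.6 and 95.2 CPM in basal and 15.7 and 32.1 CPM in wing cells. Stromal cells had 41.6 and 48.2 CPM of Cks2. In the wild-type library 1 cell gave 18.8% of the 96 wing cell UMIs of Ube2c. The 3 measured S phase genes were lower as well, with medians of -0.60 and -0.62. In wing cells alone, 4 of the G2 and M phase genes and 1 S phase gene reached a mean of 20 CPM. The others were measured through their basal level, so the filter set their direction and the counts and medians lean that way. Ribosomal protein genes were lower by a small and even amount, 45 and 46 of 46, with medians of -0.26 and -0.37, and 10 and 9 of 11 mitochondrially encoded genes were lower, with medians of -0.16 and -0.23.

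Genes of the surface and of cell contacts stood higher in the summed counts of wing cells. Psca led the 10 highest genes of at least 100 CPM in wing or basal cells of both libraries, with 55.8 and 131 CPM in basal and 562 and 1337 CPM in wing cells, log2 ratios of 3.33 (3.17 to 3.5) and 3.35 (3.25 to 3.45). Wing cells with at least 2000 CPM of Psca were 5.53% and 13.9% of the set, and the median cell held 0 and 1 UMI of 5000. Asprv1, an aspartic protease of stratified epithelium, had 295 and 511 CPM in basal and 2599 and 3767 CPM in wing cells. Ly6g6c, a surface protein of the Ly6 family (3.18 and 2.90), Cysrt1 (2.86 and 2.85), Nccrp1 (3.89 and 2.64), the cornified envelope protein Cnfn (2.66 and 2.62), Gm2694 (2.72 and 2.29), the aldose reductase relative Akr1b7 (2.96 and 2.28), Plac8 (2.75 and 2.23) and the membrane mucin Muc4 (3.06 and 2.22) followed. Of 20 genes of surface mucins and apical cells, 15 were measured and 13 and 14 were higher, with medians of 1.18 and 1.12. In Krt78-positive cells 12 and 10 of the 14 measured were higher again. Psca had 8278 and 8301 CPM in Krt78-positive, 34838 and 30912 CPM in superficial and 281 and 543 CPM in stromal cells.

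All 14 measured tight junction genes of 19 were higher in wing than in basal cells in both libraries, with medians of 0.93 and 0.65. The claudins Cldn23 and Cldn3 differed most, Cldn3 from 15.6 and 36.1 CPM in basal to 96.0 and 152 CPM in wing cells, and the scaffold genes Tjp3 and Tjp1 had ratios of 1.90 and 1.29 and of 1.37 and 1.19. Desmosome genes were higher in 8 and 9 of 10, with medians of 0.58 and 0.43. After Dsg1a (1.65 and 1.46) came the cadherin Dsc2 (1.10 and 0.92), plakophilin 1 (Pkp1, 0.99 and 0.84) and desmoplakin (Dsp, 0.79 and 0.61), which ties the plaque to keratin. Adherens and gap junction genes split, 8 of 12 being higher and 4 lower in both libraries. The connexin Gja1 went from 257 and 226 CPM in basal to 79.4 and 71.3 CPM in wing cells, while the nectin Pvrl4 had log2 ratios of 1.07 and 1.26.

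Of 10 measured keratins, 9 were higher in wing cells, with medians of 1.46 and 1.14. Krt13, a keratin of wet stratified epithelia such as the conjunctiva, had 50.8 and 111 CPM in basal and 579 and 497 CPM in wing cells, and Krt6b, a keratin of stressed and fast-renewing epithelium, 344 and 968 CPM in basal and 2319 and 3043 CPM in wing cells. Krt15, better known from limbal and basal cells, had 504 and 802 CPM in basal and 1545 and 2561 CPM in wing cells. Wing cells with at least 2000 CPM of Krt15 were 17.4% and 22.6% of the set. The other wing cells had 203 and 319 CPM, a level that this limit itself holds down. Of 33 cornified envelope genes, 11 were measured and 8 were higher, with medians of 1.00 and 0.98, among them the plakins Evpl (1.72 and 1.54) and Ppl (1.78 and 1.55). Ivl (involucrin), the classical envelope precursor, was lower, with 43.0 and 26.8 CPM in basal and 3.11 and 7.74 CPM in wing cells. It was measured through its basal level, so the filter set its direction. Sprr1b, a close relative of Sprr1a whose reads can be shared with it, and the secreted protein Dmkn had ratios of opposite sign in the libraries, 0.60 and -0.74 for Sprr1b and -0.89 and 0.63 for Dmkn.

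Of 22 cholesterol synthesis genes 20 were measured, and 18 and 19 of them were higher in wing cells, with medians of 0.56 and 0.68. Lanosterol synthase (Lss) had ratios of 1.15 and 1.13 and the mevalonate pathway enzymes Pmvk and Fdps 1.03 and 1.10 and 1.01 and 0.79. The list of corneal crystallins and detoxification genes leaned the other way, with 8 and 9 of 13 lower and medians of -0.31 and -0.36. Transketolase (Tkt), another corneal crystallin, had 4966 and 4157 CPM in basal and 2642 and 2060.2 CPM in wing cells, and Gstm1 -1.34 and -1.25, but the glutathione transferases Gsto1 and Gsta4 were higher, Gsto1 with 3574 and 6228 CPM in basal and 12232 and 18332 CPM in wing cells. Wound-edge genes were lower in 10 and 8 of 12, with medians of -0.68 and -0.60, and the matrix proteases Mmp10 and Mmp13 had ratios of -1.43 and -1.73 and of -1.66 and -1.76.

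Among epithelial transcription factors, 14 and 12 of 20 were higher, with medians of 0.22 and 0.13. Hopx, a homeodomain protein without DNA binding, had the widest difference, 3.65 and 7.02 CPM in basal and 29.98 and 53.9 CPM in wing cells. It was measured through its wing level, so the filter set its direction. Elf3, an epithelial ETS factor, had 294 and 366 CPM in basal and 937 and 915 CPM in wing cells, and Klf4, a factor of epithelial differentiation and of the corneal barrier, 654 and 736 CPM in basal and 1448 and 1404 CPM in wing cells. Grhl1, a grainyhead factor that acts on desmosomal cadherins, had ratios of 0.90 and 1.60. Immediate early and dissociation genes had medians of 0.09 and 0.02, close to that of all genes, with the sign of the second turning when cells were weighted equally. Of 41 autophagy genes 17 were measured, with medians of 0.10 and 0.22, and Map1lc3a, a gene of the LC3 family that coats autophagosomes, had ratios of 0.56 and 0.76. The 5 measured interferon response genes were all higher, with medians of 0.79 and 1.31, among them Ifitm1 (1.46 and 1.31) and Isg15 (1.21 and 1.46). Ifit1, another of the 5, was low in basal cells and measured through its wing level, so the filter set its direction.

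The next layer was read from the cells that differ from wing cells in their Krt78 count. This limit is in UMIs, and the Krt78-positive cells were deeper, with medians of 30445 and 20217 UMIs against 20449 and 14729 in wing cells. The part of depth in the ratios below was not tested. Of 3935 genes measured, 367 (9.33%) were at least 1.5-fold higher in Krt78-positive cells in both libraries and 475 (12.1%) at least 1.5-fold lower. With TMM scaling, which shifts these ratios by 0.10 and 0.15, the counts were 463 and 330. With the rule applied after thinning each cell to 5000 UMIs, which left 20 and 18 Krt78-positive cells, they were 408 and 684. Of these, 281 and 359 were among the 367 and 475. The median over all genes was -0.08 and -0.12.

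Pthlh was the lowest in Krt78-positive cells among genes of at least 100 CPM, and all measured ribosomal protein genes were lower there too. Pthlh, parathyroid hormone-related protein, had 552 and 471 CPM in basal, 298 and 239 CPM in wing and 42.6 and 38.5 CPM in Krt78-positive cells, log2 ratios for the last step of -2.80 (-3.09 to -2.54) and -2.63 (-2.95 to -2.33). The EGF family ligand Epgn had 244 and 184 CPM in basal, 195 and 160.1 CPM in wing and 56.4 and 39.3 CPM in Krt78-positive cells, so most of its difference lay above the wing layer. The TWEAK receptor Tnfrsf12a (-2.08 and -2.03), Pxdc1 (-2.01 and -2.01), Col17a1 (-1.70 and -1.84), the retinol and alcohol dehydrogenase Adh7 (-1.89 and -1.68), the TGF-beta-induced Tsc22d1 (-1.62 and -1.62) and the carboxylesterase Ces1d (-1.55 and -1.55) completed the 8 lowest of these genes. All 46 ribosomal protein genes were lower in both libraries, 36 and 41 of them by at least 1.5-fold, with medians of -0.66 and -0.81, and Rpl3 went from 1896 and 1635 to 904 and 746 CPM. Crystallin and detoxification genes were lower in 10 of 12, with medians of -0.70 and -0.66, and wound-edge genes in 8 and 7 of 11, with Mmp10 at 158 and 97.5 CPM in wing and 14.8 and 23.7 CPM in Krt78-positive cells.

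AA467197 and Psca were the highest of the genes of at least 100 CPM above the wing layer. AA467197 had 20.1 and 67.8 CPM in wing and 271 and 527 CPM in Krt78-positive cells, and in the wild-type library a single cell gave 56.1% of its wing cell UMIs. Psca (3.88 and 2.63), 2310007B03Rik (3.01 and 2.46), Ifit1bl1 of the interferon-induced Ifit family (3.79 and 2.40), Nccrp1 (2.68 and 2.19), the alcohol dehydrogenase Adh6a (2.83 and 2.16), Pbp2 (2.83 and 2.12) and Asprv1 (2.45 and 2.11) followed. Of 18 interferon response genes 8 were measured, 7 and 8 were higher and 6 and 5 at least 1.5-fold so, with medians of 1.57 and 1.64. In wing cells alone only 5 of the 18 reached the mean of 20 CPM. The others were measured through their Krt78-positive level, so the filter set their direction and the count and medians lean that way. Isg15, a ubiquitin-like protein, had 24.7 and 60.6 CPM in wing and 74.4 and 224 CPM in Krt78-positive cells. Cornified envelope genes had medians of 0.97 and 0.70, with the heterozygote median turning to -0.30 when genes of low counts were let in, and Cnfn, Csta1 and the transglutaminase Tgm1 had ratios of 1.70 and 1.2, of 1.29 and 0.94 and of 1.07 and 0.97. Tight junction genes were higher in 14 and 13 of 15, with medians of 0.54 and 0.58.

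Desmosome genes stood closer to their wing level. Their medians for this step were 0.11 and -0.21, none of 10 was at least 1.5-fold higher, and Dsc3, a desmocollin of the lower layers, was the 1 gene past 1.5-fold in both libraries, at -0.59 and -0.83. Among transcription factors Hopx was higher again (2.57 and 1.74), as was Elf3 (0.89 and 0.93), whereas Klf4 (-0.43 and -0.24), Cebpb (-0.97 and -1.24) and Trp63, the p63 factor of basal cells (-0.98 and -1.25), were lower. Klf4 was thus higher in wing cells than in the sets on either side in both libraries.

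In superficial cells, most genes measured in wing cells had a smaller share of the UMIs. Of 3462 genes measured, 551 (15.9%) were at least 1.5-fold higher than in wing cells in both libraries and 2131 (61.6%) lower, and TMM scaling, which shifts the ratios by 1.17 and 1.16, gave 1103 and 879. The median of all genes was -1.15 and -1.12, and ratios are read against it. Ribosomal protein genes had medians of -2.11 and -1.83 and desmosome genes -2.88 and -2.87, with Dsp at 918 and 851 CPM in wing and 115 and 105 CPM in superficial cells. The genes of surface mucins and apical cells had medians of 2.63 and 2.00. Ptgr1 and Gsta2 had 67.1 and 59.7 CPM and 21.9 and 20.8 CPM there.

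Among wing cells, Krt15, Psca, Gsto1, Malat1 and Asprv1 had the highest variance over mean outside the genes of the rule. Spread was taken as the variance over the mean of UMIs at 5000 UMIs a cell, a measure near 1 for pure counting error. Its median was 1.10 in both libraries over the 2250 genes with at least 0.2 UMIs a cell. Krt15 had 63.1 and 73.6, Psca 54.8 and 62.6, Gsto1 52.7 and 68.5, the nuclear noncoding RNA Malat1 94.0 and 49.2 and Asprv1 44.0 and 55.7. Ifitm1, BC100530, the calcium-binding protein S100a6, the actin-binding peptide Tmsb4x and Krt13 completed the 10 of widest spread, with values from 14.7 to 24.6. Krt15 ranged from 0 to 40684 CPM around a median of 86.9 CPM in the wild-type and from 0 to 65642 CPM around 197 CPM in the heterozygote library. Klf4 at 4.40 and 4.83 and Sprr1a at 12.9 and 13.3 had lower values. The measure grows with the level of a gene, so it does not rank spread relative to level. Tmsb4x had a mean of 100.7 and 126.9 thinned UMIs a cell, Sprr1a 10.8 and 9.16 and Klf4 7.07 and 6.85. A single cell held 2.39% of the wild-type Malat1 UMIs, and the highest cell had 1555 Malat1 UMIs of 5000.

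**Figure D3:**
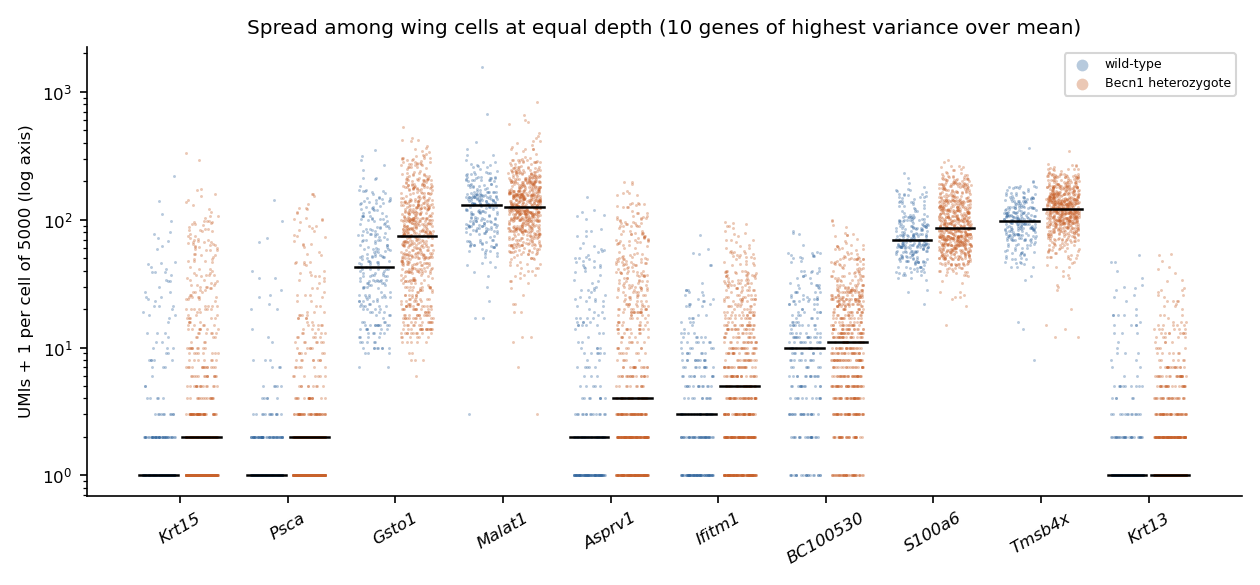
UMIs + 1 per wing cell after thinning to 5000 UMIs (y axis, log axis) for the 10 genes of widest spread (x axis), 1 point per cell, blue for 253 wild-type and orange for 667 Becn1 heterozygote cells, with black bars at the median. Krt15, Psca and Krt13 have medians of 0 or 1 UMI and reach 218 and 334, 142 and 159, and 52 and 53 UMIs in single cells.

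Gsto1, Krt6b, Asprv1 and Psca went together from cell to cell. Gsto1 and Krt6b had the highest correlation of all pairs, Pearson's r of 0.86 and 0.85 over 253 and 667 cells of log thinned UMIs, and 2289 of 2530125 pairs reached 0.3 in both libraries. Gsto1 and the membrane proteolipid Mal had 0.79 and 0.81, Asprv1 and the peptidoglycan receptor Pglyrp1 0.74 and 0.72, Psca and Cysrt1 0.62 and 0.74, and S100a6 and Lypd2 0.62 and 0.74. These values describe cells that share a library and its free RNA, and each of Gsto1, Krt6b, Asprv1, Psca and Cysrt1 was also higher in the layers above. Krt15 was less tied to them, with 0.50 and 0.44 for Krt6b and 0.26 and 0.31 for Psca. Malat1 was not, with 0.08 and 0.13 for Gsto1 and -0.19 and -0.11 for Tmsb4x, and Krt15 and Tmsb4x had 0.12 and 0.14.

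The Krt15-rich wing cells were looked at further, a choice made after the spread had been seen. Cells of at least 2000 CPM of Krt15 numbered 44 of 253 (17.4%, 12.9 to 22.6) and 151 of 667 (22.6%, 19.5 to 26.0). Krt4, a keratin of the conjunctiva and other wet epithelia, had 249 and 247 CPM in them against 24.8 and 21.2 CPM in the other wing cells, log2 ratios of 3.33 (3.02 to 3.65) and 3.54 (3.31 to 3.78). Krt13 had 1519 and 987 CPM against 363 and 342 CPM, and Krt17, Ifitm1, Nccrp1 and Ly6e had ratios between 1.23 and 1.78. Lower in them were Pthlh, with 43.9 and 81.5 CPM against 356 and 288 CPM, Col17a1, with 117 and 121 CPM against 360 and 304 CPM, Tkt and Crip1. The limbal basal markers Ifitm3 and Lrig1 were not higher in them, with ratios of -0.85 and -0.60 for Ifitm3, and -0.66 and -0.61 for Lrig1, nor was Cd63, with -0.17 and -0.50. The limbal markers Gpha2 and Krt14 have levels that the rule limits. Gpha2 was higher in the wild-type library (29.8 against 15.9 CPM, ratio 0.92) and lower in the heterozygote library (14.4 against 20.3 CPM, -0.48). Krt14 had -0.58 and -0.31. Conjunctival markers over all wing cells summed to 713 and 743 CPM, between 90.0 and 214 CPM in basal and 2110 and 2281 CPM in Krt78-positive cells. Most of the conjunctiva had been removed, and how much of this level comes from cells of conjunctival origin was not tested.

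Few genes of the wing cells stood apart between the libraries, and several of the widest ratios were smaller or of the other sign when the cells were chosen after thinning to equal depth. Becn1 itself (chromosome 11, 101285952 to 101302286, minus strand) had 49.1 CPM (43.7 to 55) in wild-type and 48.7 CPM (44.7 to 52.9) in heterozygote wing cells, a log2 ratio of -0.01 (-0.22 to 0.19). Counts from the end of a transcript need not see a deletion elsewhere in the gene, so this level is no check of the label. Of 3984 genes measured, 74 (1.86%) were at least 1.5-fold higher in the heterozygote library and 40 (1.00%) at least 1.5-fold lower, around a median of -0.03. TMM scaling, a shift of 0.05, gave 83 and 27.

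The heterozygote wing cells had fewer UMIs, and the rule has limits in UMIs. It was also applied after every cell had been thinned to 5000 UMIs, which gave 331 and 749 wing cells. This left 20 and 18 Krt78-positive cells of 81 and 105. Cells that fell below the Krt78 limit once thinned could enter the wing set, which had 253 and 667 cells as first chosen. Krt78-positive cells as first chosen had 8278 and 8301 CPM of Psca, against 562 and 1337 CPM in wing cells. This choice thus changes both sets, and the part of such cells in the ratios was not tested. Only the choice of cells was made at equal depth, and the full counts of the chosen cells were summed. Values said below to be at equal depth are of this kind. With this choice 23 genes were at least 1.5-fold higher and 31 lower, of which 16 and 15 were among the 74 and 40. When no Krt78 UMI was allowed after thinning, there were 283 and 636 wing cells and 17 genes were higher, 15 of them among the 74. Psca had 562 and 1337 CPM and a log2 ratio of 1.25 (1.2 to 1.30) as first chosen, -0.16 at equal depth and -0.25 at equal depth without Krt78. Without thinning it had 1.24 when no Krt78 UMI was allowed and 1.22 in cells of at least the lowest wild-type depth. Krt19 went from 1.42 to 0.28 and -0.07 at equal depth but had 1.86 with no Krt78 UMI and 1.42 at the lowest wild-type depth. Adh6a went from 1.63 to 0.37 and 0.07, Ifit1bl1 from 2.09 to 0.58 and 0.26, and AA467197 from 1.75 to 0.61 and 0.62. Which of depth, Krt78 count and genotype these ratios follow was not tested.

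Ifit1 and Ifit3b were at least 1.5-fold higher in the heterozygote wing cells under each of these choices. Ifit1, an RNA-binding protein induced by interferon, had 14.1 CPM (11.3 to 17.4) in the wild-type and 65.9 CPM (61.3 to 70.8) in the heterozygote wing cells, a log2 ratio of 2.22 (1.90 to 2.56), and 1.80 and 1.84 at equal depth. In basal cells it had 8.14 and 10.5 CPM. Few cells carried it, 5.14% and 12.7% of wing cells at 5000 UMIs, and the 5 highest cells gave 50.0% and 32.6% of its UMIs. Ifit3b had 1.92, and 1.36 and 0.97 at equal depth, and Isg15 1.29, with 0.93 and 0.40 at equal depth. Ifit3b has a near-identical copy in Ifit3, so reads may be split between them. The 5 measured genes of the interferon list had ratios above 0, with a median of 0.95, and 3 were at least 1.5-fold higher, against 1.86% of all genes measured. Ifit1, of this list, was below 20 CPM in the wild-type wing cells and was measured through the heterozygote library. The filter thus set its direction, and the count and median lean that way. Ifit3b was measured in the same way. Ifitm1 had 0.95, and 0.33 and 0.38 at equal depth, and Ifi35 had 0.31. Serpinb2, a serpin of stressed epithelium, had 13.1 and 42 CPM, a ratio of 1.67 (1.34 to 2.04) and values of 1.55 and 1.61 at equal depth, with 7.14 and 36.3 CPM in basal cells, and 5 cells gave 77.5% of its wild-type wing cell UMIs. Like Ifit1, it was measured through the heterozygote library, so the filter set its direction. The acute phase gene Saa1 had 1.13, and 0.65 and 0.31 at equal depth.

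Cyr61, Klf2 and Ly6d were among the 10 lowest genes in the heterozygote wing cells. Cyr61, a matricellular protein of early growth and stretch responses, had 379.9 and 192 CPM, a ratio of -0.99 (-1.07 to -0.90), and -0.77 and -0.75 at equal depth. It was lower in basal cells too, with 653 and 377 CPM. Klf2, a Kruppel-like factor, had 44.6 and 20.7 CPM in wing and 17.6 and 16.2 CPM in basal cells, with a wing ratio of -1.11 (-1.36 to -0.85) and -1.02 at equal depth. Of 29 measured immediate early and dissociation genes 23 were below 0, against 2215 of 3984 of all genes, with a median of -0.26, and 3 were at least 1.5-fold lower and 1 higher. Jun had -0.55. These genes also respond to the warm digestion, and its part in the difference was not tested. Ly6d (-1.2), Sprr1b (-1.0, and -0.45 at equal depth), the protease inhibitor Spink13 (-0.87), Mfge8 (-0.84), Gm10263 (-0.84) and Gm20383 (-0.79) were the other genes of the 10 lowest, from which mitochondrial and ribosomal protein genes were left out. The mitochondrially encoded mt-Nd3, a subunit of respiratory complex I, was lower than most of them, with 115 and 55.5 CPM, a ratio of -1.05 (-1.21 to -0.90) and -1.02 at equal depth, and had 143 and 94.9 CPM in basal cells.

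Col1a1 and Col1a2, stromal collagens, were the lowest and the third lowest gene as chosen, with 167 and 63.0 CPM and 118 and 53.0 CPM, ratios of -1.40 (-1.54 to -1.27) and -1.15 (-1.31 to -0.99). In the wild-type library 1 wing cell gave 38.7% of the Col1a1 UMIs. Without the 2 cells of each library with 1000 CPM or more of stromal markers and the 1 cell with leukocyte markers the ratios were 0.28 and 0.38.

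**Figure D4:**
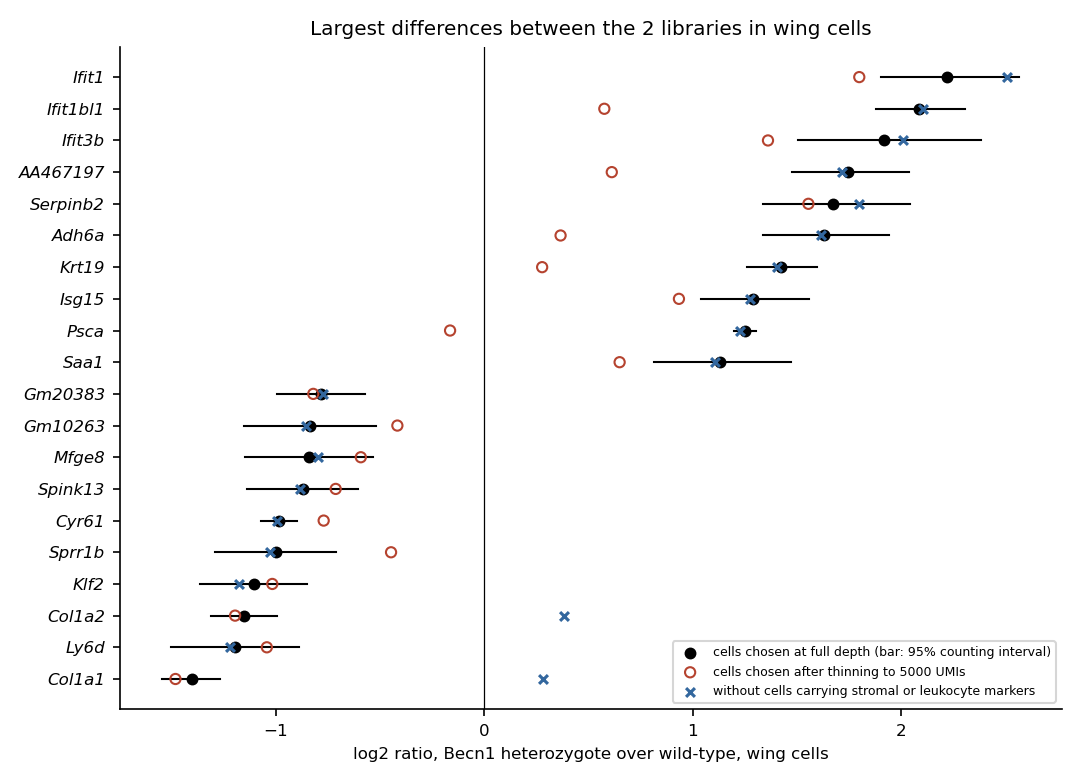
Log2 ratio of the Becn1 heterozygote over the wild-type library in wing cells (x axis) for the 10 highest and 10 lowest genes outside mitochondrial and ribosomal protein genes, with filled points and 95% counting intervals for the cells as chosen, open circles for cells chosen after thinning to 5000 UMIs, and crosses for the cells without stromal or leukocyte markers. In cells chosen after thinning Psca moves from 1.25 to -0.16 and Ifit1 from 2.22 to 1.80, and Col1a1 moves from -1.40 to 0.28 without the marker-carrying cells.

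The layer lists held unequal counts of genes 1.5-fold apart between the libraries. Of all 3984 genes measured, 74 (1.86%) were higher and 40 (1.00%) lower by that fold. Of the surface mucin and apical genes, 5 of 15 were at least 1.5-fold higher and 1 lower in the heterozygote, of the keratins 3 of 10 higher, of the cornified envelope genes 1 of 10 higher and 2 lower, and of the tight junction genes 2 of 14 higher, all in the cells as first chosen. At equal depth Psca went from 1.25 to -0.16, Krt19 from 1.42 to 0.28 and Krt15 from 0.73 to 0.38. Ly6d, the 1 lower surface gene, went from -1.2 to -1.04. Dsg1a had a ratio of -0.05 (-0.14 to 0.04), Aldh3a1 -0.13 (-0.14 to -0.11) and Sprr1a -0.30 (-0.33 to -0.27), the last of which was -0.11 at equal depth. Gsta2 was lower, at -0.52 (-0.61 to -0.43). No hemidesmosome gene of 9, desmosome gene of 10 or ribosomal protein gene of 46 was 1.5-fold apart, with medians of -0.13, -0.06 and -0.09, and the largest ribosomal difference was that of Rps28 (-0.58). Few genes of any kind were 1.5-fold apart, so these counts do not set the lists apart from all genes. Cholesterol synthesis genes were higher in 17 of 21, with a median of 0.11. Of the 41 autophagy genes 17 were measured, 8 of them higher and 9 lower and none 1.5-fold apart, a count that is likewise near the low share of all genes. Their median was -0.0025, and it was 0.05 with TMM scaling. The lowest of them was Atg101, a subunit of the kinase complex that starts autophagy, with 35.9 and 30.3 CPM and a ratio of -0.24 (-0.49 to 0.01), and the highest was Wipi1 at 0.24 (-0.05 to 0.54).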

How the data were processed

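Droplet libraries of 1 wild-type and 1 Beclin1 +/- mouse were deposited as matrices of UMI counts per gene and cell, which the authors made with Cell Ranger 2.1.1 on mm10, per the submitters' processing notes. For the annotation release and the cell calling, nothing is stated (not given in the sources used here). All 7668 deposited barcodes were used, doublets were kept, and removing those marked by Scrublet was an alternative. Counts were summed over the cells of a set within a library and scaled to CPM. Log2 ratios had 0.5 counts added to each sum and exact conditional 95% intervals. With 1 library per genotype no test was made, and a gene counted as higher or lower from 1.5-fold, in both libraries for comparisons between layers. Genes with a mean under 20 CPM and the rule's own genes were left out. Spread, shares of cells and correlations used cells thinned to 5000 UMIs. Depth was 5535 to 91733 UMIs per wing cell. Intervals were taken on the counts of 1 library per genotype and cover counting error only.

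Genes were named by rank of their ratios (10 highest and 10 lowest for wing over basal and for genotype, 8 and 8 for Krt78-positive over wing, 10 highest in wing cells, 10 of widest spread, all outside mitochondrial, ribosomal protein and rule genes, the layer ratios among genes of at least 100 CPM), with the wing markers, Becn1 and up to 4 genes of each list, and other named genes were chosen after their values were seen. A few genes that the rule names are not reported here. The wing cell rule, the lists and the markers were chosen with earlier results of these data known. Gene positions came from GENCODE vM21 (GRCm38), in which 27645 of 27998 features had a match. The alternatives were other limits of the rule, thinning before the rule, TMM scaling, equal weight of cells, other filters on low counts and removal of doublets or of marker-carrying cells. The scripts were tested on simulated data. Python 3.11.15, numpy 2.4.6, scipy 1.17.1, pandas 2.3.3, scanpy 1.11.5, matplotlib 3.10.9, R 4.3.3 and edgeR 4.0.16 (for TMM factors) were used.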

Additional observations from a re-analysis of the deposited data

Results flagged for a closer look

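Sprr1b and Dmkn had wing over basal log2 ratios of opposite direction in the libraries. For Sprr1b the ratio was 0.60 in the wild-type and -0.74 in the Beclin1 +/- library, and for Dmkn it was -0.89 and 0.63. With 1 animal per genotype the difference between the libraries was not tested.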

How the results depend on the processing

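No paired analysis was possible because each genotype was 1 animal and 1 library, and for the same reason no replicate was left out. A few alternatives were chosen after seeing the data: no Krt78 UMI, thinning with no Krt78 UMI, and leaving out Krt15-rich cells or cells with stromal or leukocyte markers. The cause of the moves below was not tested.

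The share of wing cells was 13.2% and 14.5% with the rule applied after thinning, 7.16% and 9.82% with Krt14 below 1000 CPM, 14.2% and 17.5% below 4000 CPM, 12.7% and 16.7% with Krt12 of at least 10000 CPM, 3.34% and 4.02% at 40000 CPM, 8.04% and 10.2% with no Krt78 UMI, and 8.32% and 10.01% without Krt15-rich cells. In heterozygote cells of at least the lowest wild-type depth it was 15.3%.

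Thinning was used here for the choice of cells only, and their full counts were summed. Genes higher in the heterozygote numbered 23 after thinning and 17 after thinning with no Krt78 UMI. With no filter on low counts, 2550 genes were higher and 2311 lower between genotypes, 1621 and 2360 for wing over basal, 2650 and 1890 for Krt78-positive and 1759 and 7194 for superficial over wing. With a minimum of 100 CPM the counts were 17 and 8, 127 and 100, 114 and 182, and 244 and 531. TMM scaling gave 1103 and 879 for superficial over wing. At 40000 CPM of Krt12, 101 genes were lower between genotypes, 72 higher for wing over basal, and 203 higher and 267 lower for Krt78-positive over wing.

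Some ratios changed sign. Between genotypes, Psca had -0.16 after thinning and -0.25 with no Krt78 UMI as well, where Krt19 had -0.065. Without marker-carrying cells Col1a1 had 0.28 and Col1a2 0.38. For wing over basal, heterozygote Dmkn had -0.036 after thinning and -0.044 with no Krt78 UMI as well, and heterozygote Sprr1b 0.69 with Krt14 below 4000 CPM. Without Krt15-rich cells Krt15 had -1.31 and -1.33, a direction that the removal itself fixes, and heterozygote Krt4 -0.66. The cornified envelope median of Krt78-positive over wing was -0.30 in the heterozygote with no filter. At 40000 CPM of Krt12, which leaves 25 and 50 basal cells, Col1a1 had 0.41, Col1a2 0.68 and Krt15 -0.19 between genotypes. Wing over basal there gave Agpat3 -0.34, Krt19 -0.23 and Grhl1 -0.0089 in the wild-type. In the heterozygote it gave Tbcd -0.12, Krt19 -0.60, Krt15 -0.92, Ifitm1 -0.12, Krt13 -0.28, Krt6b -0.025, Krt4 -0.19, Dsc2 -0.052, Ivl 1.99, Sprr1b 1.68 and a keratin median of -0.23. For Krt78-positive over wing, Insig1 had -0.14 in the heterozygote and hemidesmosome genes a median of 0.11 in the wild-type.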
